A study of Homo sapiens with 4 samples.

Results

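YAP1 and WWTR1 (the gene of TAZ), the 4 TEAD factors and 4 of their best-known target genes were examined in U251 cells, an established human glioblastoma line, with and without knockdown of the arginine methyltransferase PRMT3. The 10 genes were chosen by name, and all 10 were found among the 15575 genes of the count table and passed the filter on low counts. RNA-seq libraries were made from cells with a lentiviral control shRNA (Ctrl, 2 libraries) and from cells with lentiviral PRMT3 shRNA (PRMT3-KD, 2 libraries), so all 4 libraries come from virus-treated cells of 1 line. The labels do not say whether the 2 libraries of a group came from separate cultures or which hairpin was used, and p-values therefore measure the spread between these libraries, which may be technical.

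YAP and TAZ are transcriptional coactivators that do not bind DNA themselves and reach their target genes through the TEAD proteins, which do. The Hippo pathway, a kinase cascade in which MST kinases (STK3, STK4) activate LATS kinases, phosphorylates YAP and TAZ and keeps them in the cytoplasm or marks them for degradation. Their activity is thus set largely at the protein level and is usually read from targets such as CTGF and CYR61, also in glioma cells, where they are tied to adhesion, stiffness and a mesenchymal state. Phosphorylation and localization were not measured here.

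Total counts lay between 24804250 and 29756313 per library. PRMT3 itself had 535 counts in each Ctrl library and 77 and 45 counts after knockdown. The 2 Ctrl libraries were close to each other, with a median difference of 0.0530 on the log2 scale over 13172 tested genes, against 0.236 between the 2 PRMT3-KD libraries. Of the 10 glioma or astroglial markers looked up, all 10 were counted, with a summed level of 10070 and 10080 CPM (counts relative to library size, normalized) in Ctrl and 8638 and 9616 CPM in PRMT3-KD, and SOX9 fell. VIM, CD44 and TNC were abundant and made up most of this sum, with VIM alone at 5399 and 5389 CPM in Ctrl. GFAP stood at 13.1 and 14.3 CPM in Ctrl and at 1.26 and 5.39 CPM in PRMT3-KD. FABP7 stood at 34.7 and 33.5 CPM in Ctrl and at 14.7 and 23.9 CPM in PRMT3-KD. EGFR, S100B and CD44 had log2 fold changes of 0.147, 0.191 and 0.0011, and the other glial markers lay below 0. Of 10 markers of immune, endothelial, epithelial, neuronal and oligodendrocyte cells, 6 were in the table. Their summed level was 12.7 and 13.4 CPM in Ctrl and 16.4 and 17.2 CPM in PRMT3-KD. Most of this sum was the neuronal marker SYT1, at 10.03 and 11.09 CPM in Ctrl and 14.29 and 14.01 CPM in PRMT3-KD. SYT1 was thus below GFAP in both Ctrl libraries and above it in both PRMT3-KD libraries. VWF had 30 to 70 counts per library. The other 4 had at most 13, with CDH1 at 0 in both Ctrl libraries. The part of the marker shifts in the results below was not tested.

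Of the 10 genes, 1 passed the test. ANKRD1 was called higher in PRMT3-KD, a call being an adjusted p under 0.05 from edgeR's quasi-likelihood test over all 13172 genes together with a change of over 1.5-fold. By the same rule 10.9% of all tested genes were called, 4.97% as higher and 5.97% as lower, so 1 of 10 is near the background. The median log2 fold change of the 10 genes was 0.22, with 7 above 0 and 3 below, beside a median of 0.0055 over all tested genes. In 8 of the 10 both PRMT3-KD values lay on one side of both Ctrl values, 6 above and 2 below, but this held for 67.1% of all tested genes. With 2 libraries a group, the smallest p an exact permutation test allows is 0.333, and each p given comes from the model across all genes. The edgeR model assumes the same spread in both groups, while 2.78% of tested genes lay over 1.5-fold apart within Ctrl and 16.3% within PRMT3-KD. Its p-values and intervals thus pool a close Ctrl pair with a wider PRMT3-KD pair. In bulk RNA, fewer cells of a type and less RNA per cell cannot be told apart.

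**Figure D1:**
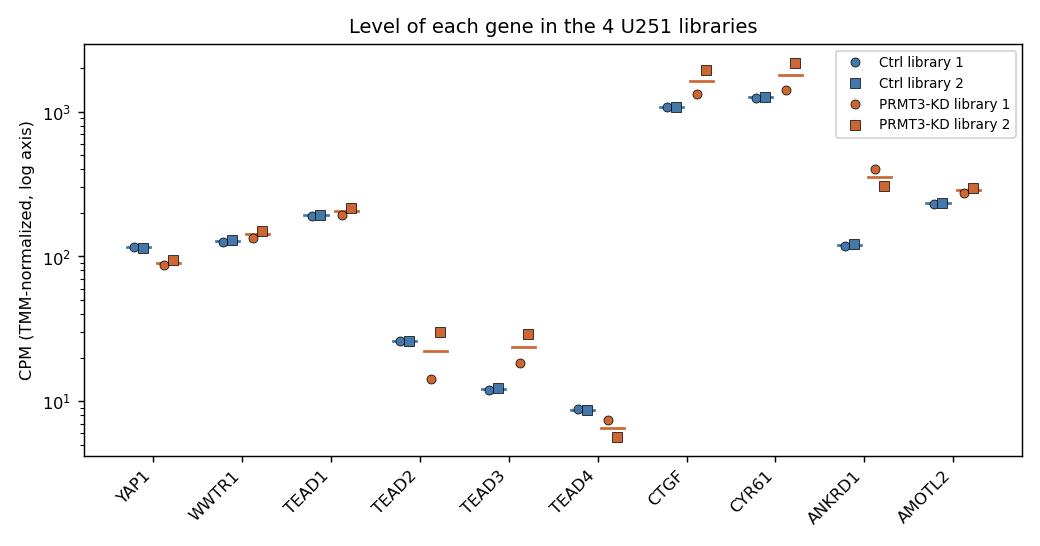
Normalized level (CPM, log axis) of each of the 10 genes in the 2 Ctrl (blue) and 2 PRMT3-KD (orange) libraries, with circles for library 1, squares for library 2 and lines at the group means. The Ctrl libraries nearly coincide for every gene, whereas the PRMT3-KD libraries lie apart most widely for TEAD2 (14.3 and 30.1 CPM), and ANKRD1 stands well above Ctrl in both.

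Normalized per kilobase of the canonical transcript, so that genes can be compared, all 4 targets stood above the factors in Ctrl cells, CYR61 and CTGF by the most. CYR61 and CTGF had mean levels of 550 and 460 CPM per kb in Ctrl cells, which placed them 90th and 116th among 13118 tested genes with a transcript length. ANKRD1 followed at 67.0 and AMOTL2 at 47.8 CPM per kb. WWTR1, YAP1 and TEAD1 formed a middle group at 25.5, 21.4 and 20.5 CPM per kb, followed by TEAD2 at 11.98, TEAD4 at 5.13 and TEAD3 at 4.09. When all annotated exons were used as the length, CTGF came before CYR61, WWTR1 came after both YAP1 and TEAD1, and TEAD3 came before TEAD4, so the order within these groups is not settled by these data. In PRMT3-KD cells the range of CYR61 (623 and 956 CPM per kb) overlapped that of CTGF (569 and 830), and the range of TEAD2 (6.59 and 13.9) overlapped that of TEAD3 (6.12 and 9.80). Within each library CYR61 was above CTGF and TEAD2 above TEAD3 on this scale, with a ratio of TEAD3 to TEAD2 of 0.929 and 0.707 in PRMT3-KD against 0.337 and 0.345 in Ctrl.

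The coactivators YAP1 and WWTR1 are paralogs with largely shared targets. YAP1 (ENSG00000137693) lies on chromosome 11 of GRCh37 from 101981178 to 102104155 on the plus strand, with 9 exons in its canonical transcript. It had 116 and 115 CPM in Ctrl and 87.2 and 94.4 CPM in PRMT3-KD, from 2216 to 3211 counts. Both PRMT3-KD values lay below both Ctrl values, by 0.40 and 0.29 on the log2 scale. The log2 fold change of -0.34 (SE 0.0775, 95% interval -0.55 to -0.14) missed the threshold on both criteria, with an adjusted p of 0.0504 (edgeR). Under limma-voom with group weights the adjusted p was 0.0372 and under DESeq2 0.0670, and at this size neither called it. An unnamed lncRNA on the other strand shares 9.95% of the exon bases of YAP1, 3 YAP1 pseudogenes are annotated, and whether the counting used strand is not given in the sources used here.

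WWTR1 (ENSG00000018408, chromosome 3 of GRCh37 from 149235022 to 149454501, minus strand, 7 exons) had 127 and 130 CPM in Ctrl and 134 and 149 CPM in PRMT3-KD. The PRMT3-KD values were the higher ones, by 0.06 and 0.22 on the log2 scale. WWTR1 had a log2 fold change of 0.14 (SE 0.0853, 95% interval -0.08 to 0.37, adjusted p = 0.288, edgeR), and exons of the antisense gene WWTR1-AS1 share 9.05% of its exon bases. The ratio of the WWTR1 level to the YAP1 level, both per kilobase, was 1.17 and 1.21 in Ctrl and 1.65 and 1.70 in PRMT3-KD cells. The summed level of both coactivators was 46.6 and 47.1 CPM per kb in Ctrl and 42.8 and 47.2 CPM per kb in PRMT3-KD, so the groups overlapped in the sum but not in the ratio. Neither the sum nor the ratio was tested, and the levels of 67.1% of all tested genes separated the groups in this way. The exact value of the ratio depends on the transcript lengths, its direction between groups does not.

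The TEAD proteins share a DNA-binding domain and differ between tissues in which member is most expressed. TEAD1 (ENSG00000187079, chromosome 11 from 12695968 to 12966284, plus strand) was the most abundant, with 191 and 194 CPM in Ctrl and 194 and 218 CPM in PRMT3-KD. The groups overlapped, and the log2 fold change was 0.09 (SE 0.0869, 95% interval -0.14 to 0.33, adjusted p = 0.484, edgeR). The interval, from a fit that assumes the same spread in both groups, holds neither a 1.5-fold rise nor a 1.5-fold fall.

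TEAD2 (ENSG00000074219, chromosome 19 from 49843852 to 49865714, minus strand) lay on opposite sides of Ctrl in the 2 PRMT3-KD libraries. It had 26.0 and 26.2 CPM in Ctrl, 14.3 CPM in PRMT3-KD library 1 and 30.1 CPM in library 2, from 719, 720, 364 and 856 counts. The log2 fold change of -0.23 (SE 0.363, 95% interval -1.20 to 0.74, adjusted p = 0.687, edgeR) therefore averaged a value below Ctrl and a value above it. Without PRMT3-KD library 1 it was 0.21, and without library 2 it was -0.87. Exons of CD37 on the other strand share 10.7% of the exon bases of TEAD2, and CD37 had at most 2 counts in a library.

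TEAD3 (ENSG00000007866, chromosome 6 from 35441374 to 35464856, minus strand) had 12.02 and 12.4 CPM in Ctrl and 18.3 and 29.3 CPM in PRMT3-KD. Both PRMT3-KD values were above both Ctrl values, and library 2 was the higher. The log2 fold change of 0.96 (SE 0.2502, 95% interval 0.29 to 1.63) had an adjusted p of 0.0659 (edgeR), so TEAD3 was not called. It was called by DESeq2 (adjusted p = 0.0046) and by limma-voom with group weights (adjusted p = 0.0128). Without PRMT3-KD library 2 the value was 0.58, under 1.5-fold, and without library 1 it was 1.26.

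TEAD4 (ENSG00000197905, chromosome 12 from 3068496 to 3149842, plus strand), the member with the fewest reads, had 245 and 239 counts in Ctrl and 189 and 161 in PRMT3-KD. These were 8.84 and 8.69 CPM in Ctrl and 7.44 and 5.67 CPM in PRMT3-KD, with both PRMT3-KD values below Ctrl. Its log2 fold change was -0.42 (SE 0.184, 95% interval -0.91 to 0.07, adjusted p = 0.178, edgeR).

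The makeup of the TEAD messages, as shares of their summed level per kilobase, followed these values. TEAD1 made up 49.0% and 49.3% of it in Ctrl and 54.7% and 46.2% in PRMT3-KD. The share of TEAD3 was 9.72% and 9.91% in Ctrl and 16.3% and 19.6% in PRMT3-KD, above Ctrl in both libraries. The share of TEAD4 was 12.5% and 12.1% in Ctrl and 11.6% and 6.62% in PRMT3-KD. The summed TEAD level was 41.4 and 41.9 CPM per kb in Ctrl, and it lay below this in PRMT3-KD library 1 (37.6) and above it in library 2 (50.1). These shares were not tested.

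**Figure D2:**
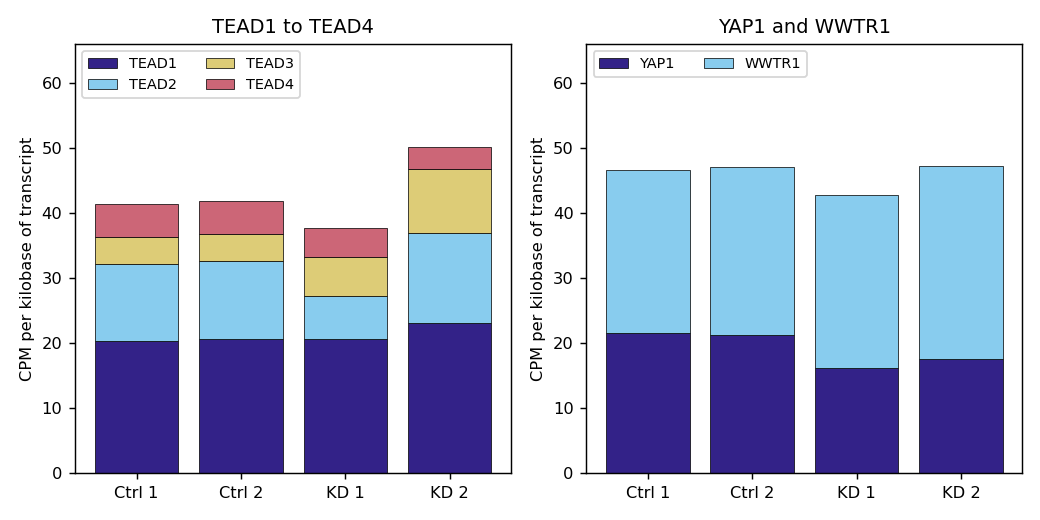
Stacked levels (CPM per kilobase of canonical transcript) of TEAD1 to TEAD4, left, and of YAP1 and WWTR1, right, in each of the 4 libraries. The TEAD3 segment is taller in both PRMT3-KD libraries, the TEAD2 segment is short in KD 1 alone, and the coactivator total lies between 42.8 and 47.2 CPM per kb in all 4.

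The 4 targets are CTGF and CYR61, secreted matricellular proteins of the CCN family, ANKRD1, an ankyrin-repeat protein of the nucleus and the sarcomere, and AMOTL2, an angiomotin that binds YAP and is part of a negative feedback. ANKRD1 (ENSG00000148677) lies on chromosome 10 of GRCh37 from 92671853 to 92680844 on the minus strand and has 9 exons, and none of its exon bases are shared with another annotated gene. It had 119 and 121 CPM in Ctrl and 404 and 304 CPM in PRMT3-KD. Both PRMT3-KD libraries stood far above both Ctrl libraries, with library 1 the higher. ANKRD1 rose 2.95-fold, from 120 ± 1.41 to 354 ± 70.5 CPM (SD over 2 libraries), with a log2 fold change of 1.56 (SE, the standard error, 0.156, 95% interval 1.15 to 1.98, adjusted p = 0.0172, edgeR). DESeq2, limma-voom and every other scaling and filter tried called it as well. Without Ctrl library 1 or 2 its adjusted p was 0.108 and 0.0868 (edgeR) at log2 fold changes of 1.55 and 1.57. In both of those fits the spread rests on the PRMT3-KD pair alone, and edgeR called 0 genes of the whole table, with 1842 and 1868 genes at an unadjusted p under 0.05, so every call named below is lost there too.

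CTGF (ENSG00000118523, annotated as CCN2, chromosome 6 of GRCh37 from 132269316 to 132272512, minus strand, 5 exons) had 29720 and 29684 counts in Ctrl and 33815 and 55093 in PRMT3-KD. Normalized, these were 1073 and 1079 CPM in Ctrl and 1331 and 1939 CPM in PRMT3-KD. Both PRMT3-KD libraries were above Ctrl, library 2 by more. The log2 fold change of 0.60 (SE 0.194, 95% interval 0.09 to 1.12) was not called, with an adjusted p of 0.0995 (edgeR), and was called by DESeq2 (adjusted p = 0.0191). Under limma-voom the adjusted p was 0.0141 at a log2 fold change of 0.58, just under 1.5-fold. It was 0.85 without PRMT3-KD library 1 and 0.30 without library 2. The lncRNA LINC01013 shares 11.9% of the exon bases of CTGF on the other strand.

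CYR61 (ENSG00000142871, annotated as CCN1, chromosome 1 from 86046444 to 86050272, plus strand, 5 exons) had 1241 and 1265 CPM in Ctrl and 1418 and 2177 CPM in PRMT3-KD. Its pattern was that of CTGF, with both PRMT3-KD values above Ctrl and library 2 well above library 1. CYR61 had a log2 fold change of 0.52 (SE 0.218, 95% interval -0.06 to 1.10, adjusted p = 0.163, edgeR). Without PRMT3-KD library 1 it was 0.80, and without library 2 it was 0.18. Under limma-voom with group weights the adjusted p of CYR61 was 0.0365 at a log2 fold change of 0.49, and under DESeq2 it was 0.0685. Neither called CYR61. The ratio of CTGF to CYR61, both per kilobase, was 0.8425 and 0.8316 in Ctrl and 0.9144 and 0.868 in PRMT3-KD. The ratio was not tested, and whether it lies below 1 depends on the transcript length used. The summed level of both genes went from 1003 and 1017 CPM per kb in Ctrl to 1192 and 1785 CPM per kb in PRMT3-KD.

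AMOTL2 (ENSG00000114019, chromosome 3 from 134074189 to 134094321, minus strand, 10 exons) had 231 and 234 CPM in Ctrl and 274 and 299 CPM in PRMT3-KD. The PRMT3-KD values were higher by 0.24 and 0.36 on the log2 scale and close to each other. The log2 fold change of 0.30 (SE 0.0779, 95% interval 0.09 to 0.51) had an adjusted p of 0.0646 (edgeR). The interval, from a fit that assumes the same spread in both groups, lies below a 1.5-fold change. The adjusted p was 0.03455 under limma-voom with group weights and 0.0884 under DESeq2, and at this size neither called AMOTL2. The pseudogene RPL39P5 shares 2.89% of its exon bases on the same strand. The 4 targets were thus all above Ctrl in both PRMT3-KD libraries, with ANKRD1 alone called. Such a separation of the groups, in either direction, held for 67.1% of all tested genes, and the share above Ctrl alone was not counted.

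**Figure D3:**
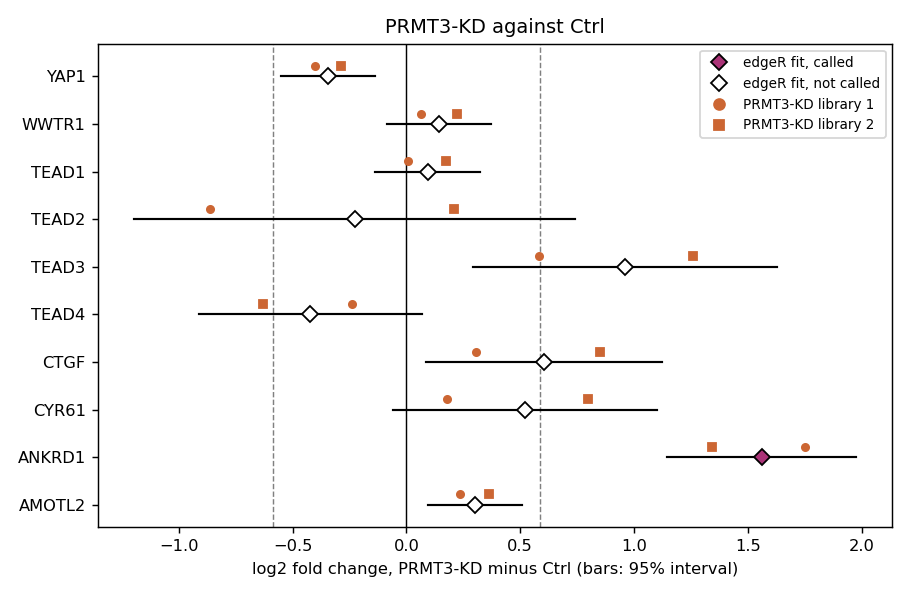
Log2 fold change of PRMT3-KD against Ctrl for each gene (diamonds, with 95% intervals from the edgeR fit) and the value of each PRMT3-KD library against the Ctrl mean (circles, library 1, and squares, library 2). Dashed lines mark 1.5-fold. Only the ANKRD1 diamond is filled as called, the TEAD2 libraries lie on both sides of 0, and the CTGF and CYR61 libraries lie 0.54 and 0.62 apart.

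TEAD proteins bind the sequence GGAATG, and upstream sequence of the targets is shown to place that motif in the genes with the values above. RefSeq promoters (GRCh38.p14) were matched for 7 of the 10 genes, and the 250 bases before each annotated start were searched for GGAATG on both strands. CTGF, ANKRD1, YAP1 and AMOTL2 held it in a window. Below, on the strand of each gene, capitals mark the motif or its reverse complement CATTCC. CTGF is at chr6:131951373-131951622 (minus strand), ANKRD1 at chr10:90921088-90921337 (minus strand), and stretches of 30 bases are given for YAP1 at chr11:102110273-102110302 (plus strand) and AMOTL2 at chr3:134374499-134374528 (minus strand).
CTGF: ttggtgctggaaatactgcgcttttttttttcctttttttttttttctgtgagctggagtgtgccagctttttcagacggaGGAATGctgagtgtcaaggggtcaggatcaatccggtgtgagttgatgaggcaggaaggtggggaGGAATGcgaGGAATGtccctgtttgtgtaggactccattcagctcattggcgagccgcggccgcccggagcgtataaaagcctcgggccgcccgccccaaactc
ANKRD1: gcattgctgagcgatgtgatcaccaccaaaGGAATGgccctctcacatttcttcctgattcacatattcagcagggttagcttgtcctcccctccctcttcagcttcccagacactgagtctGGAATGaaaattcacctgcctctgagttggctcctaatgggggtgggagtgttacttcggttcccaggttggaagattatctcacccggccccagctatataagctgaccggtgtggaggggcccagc
YAP1: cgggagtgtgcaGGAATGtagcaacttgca
AMOTL2: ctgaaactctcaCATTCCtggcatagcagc

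The CTGF window held 3 copies, whose first bases are at -169, -104 and -95 from the start, and the ANKRD1 window held 2, at -220 and -128. The YAP1 copy is at -162, and the AMOTL2 copy, on the other strand, at -69 from one of its 2 starts. Counted by window, 4 of the 10 windows of these genes held the motif. Of all 35116 windows in the table, 11.9% held the motif at least once, 0.940% at least 2 times and 0.0826% at least 3 times. Among the 15637 windows of tested genes these shares were 9.93%, 0.6715% and 0.05756%. CTGF, ANKRD1 and AMOTL2 were chosen as known targets, so the shares are given as a description. No copy was found in the windows of WWTR1, TEAD2 and TEAD3, which says only that these letters are not in these windows. CYR61, TEAD1 and TEAD4 were not matched. Binding of TEAD was not measured.

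**Figure D4:**
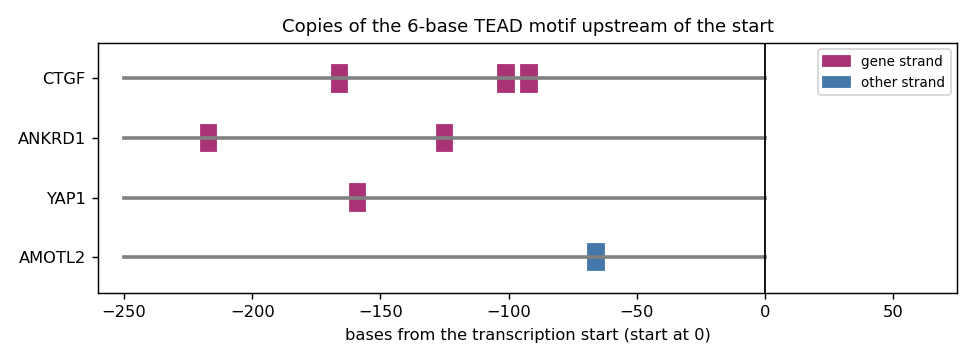
Position of GGAATG in the 250 bases before the transcription start (bases from the start, at 0) of CTGF, ANKRD1, YAP1 and AMOTL2, with copies on the strand of the gene in purple and on the other strand in blue. CTGF holds 3 copies and ANKRD1 holds 2, where 0.940% of all windows hold at least 2.

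Likeness of pattern was measured as the distance between log2 CPM profiles over the 4 libraries, each centred on its mean, among the 9458 genes that averaged 10 CPM or more. The genes nearest to CTGF were DBN1 (drebrin, an actin-binding protein), PKIG (an inhibitor of protein kinase A) and PTGFRN, at distances of 0.0285, 0.0292 and 0.0352. DBN1 had 141 and 141 CPM in Ctrl and 176 and 261 CPM in PRMT3-KD. The genes nearest to YAP1 were HNRNPUL2, STK36 and MTCH1, at distances of 0.0170, 0.0189 and 0.0196. Over 4 libraries of 2 groups such profiles have few ways to differ, and likeness is given as a description.

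The core kinase module of the Hippo pathway held 2 called genes among its 8, 1 in each direction, with a median log2 fold change of 0.20, where 10.9% of all tested genes were called, 4.97% as higher and 5.97% as lower. LATS2, a kinase that phosphorylates YAP and TAZ and is itself one of their targets, rose from 54.4 and 52.6 CPM in Ctrl to 126 and 98.7 CPM in PRMT3-KD, a log2 fold change of 1.07 (SE 0.141, adjusted p = 0.0212, edgeR). NF2, which encodes merlin, an upstream activator of the cascade, fell from 401 and 414 CPM to 230 and 278 CPM (log2 fold change -0.68, SE 0.114, adjusted p = 0.0306, edgeR). Without PRMT3-KD library 1 the NF2 value was -0.55, which is under 1.5-fold. The kinases STK3 (log2 fold change 0.37, adjusted p = 0.0483, edgeR), STK4 (0.10) and LATS1 (0.30) were not called, nor were the scaffold SAV1 (0.35) and the LATS cofactors MOB1A (0.07) and MOB1B (-0.26).

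Of the 25 listed regulators and TEAD cofactors, 24 were in the table and 23 were tested. Of these, 2 were called, both as higher, where 10.9% of all tested genes were called, 4.97% as higher and 5.97% as lower. VGLL4, which competes with YAP for TEAD and represses its targets, rose from 107 and 106 CPM in Ctrl to 247 and 201 CPM in PRMT3-KD, a log2 fold change of 1.08 (SE 0.120, adjusted p = 0.0191, edgeR). BTRC, the substrate receptor of the ubiquitin ligase that targets phosphorylated YAP and TAZ, rose from 30.6 and 31.0 CPM to 61.2 and 60.3 CPM (log2 fold change 0.98, SE 0.0762, adjusted p = 0.0142, edgeR). The 2 PRMT3-KD libraries nearly coincided for BTRC and lay 0.30 apart on the log2 scale for VGLL4. The lowest value of the list was that of FRMD6, an upstream activator (log2 fold change -0.33, adjusted p = 0.0833, edgeR). The median of the 23 genes was 0.08. VGLL3, another TEAD cofactor, had 41.4 and 41.8 CPM in Ctrl and 21.5 and 44.95 CPM in PRMT3-KD, split between the libraries as TEAD2 was.

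A further 21 widely used YAP and TAZ targets were all tested, and 4 were called, 2 as higher and 2 as lower, with a median log2 fold change of 0.16. Of all tested genes 10.9% were called, 4.97% as higher and 5.97% as lower, and the difference of this list from that share was not tested. F3, the coagulation initiator tissue factor, rose from 70.0 and 69.5 CPM in Ctrl to 166 and 187 CPM in PRMT3-KD, a log2 fold change of 1.34 (SE 0.0890, adjusted p = 0.0140, edgeR). LATS2, given above, was the other called as higher. IGFBP3, a binding protein of insulin-like growth factors that the study itself picked out of these libraries, fell from 13.7 and 12.4 CPM to 3.46 and 3.59 CPM (log2 fold change -1.89, SE 0.143, adjusted p = 0.0142, edgeR). CRIM1, a transmembrane protein that binds BMPs, fell from 504 and 501 CPM to 303 and 273 CPM (log2 fold change -0.80, SE 0.0833, adjusted p = 0.0179, edgeR). MYOF (log2 fold change 0.52) and EDN1 (0.57) had adjusted p of 0.0317 and 0.0227 (edgeR) and stayed under 1.5-fold.

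Some targets, like CTGF and CYR61, differed between the 2 PRMT3-KD libraries and were not called. THBS1 had 5435 and 5492 CPM in Ctrl and 6232 and 10930 CPM in PRMT3-KD, and TGFB2 had 305 and 305 CPM in Ctrl and 368 and 784 CPM in PRMT3-KD. Both encode secreted proteins, and library 2 was the higher for each. CCDC80 had 421 and 413 CPM in Ctrl, 154 CPM in PRMT3-KD library 1 and 488 CPM in library 2. For others library 1 was the higher. NT5E had 186 and 187 CPM in Ctrl and 150 and 76.0 CPM in PRMT3-KD libraries 1 and 2, below Ctrl in both. GADD45A had 98.8 and 100.5 CPM in Ctrl and 144 and 79.3 CPM in PRMT3-KD libraries 1 and 2, on opposite sides of Ctrl. These 5 genes were singled out after their values were seen.

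Of the other CCN genes, NOV and WISP1 were tested, and edgeR called 0, with 1 at an unadjusted p under 0.05. Of all 13172 tested genes, edgeR called 10.9%, and 4950 had an unadjusted p under 0.05. DESeq2 called 1 of the 2, WISP1, where it called 13.9% of all tested genes. NOV had 143 and 137 counts in Ctrl and 280 and 147 in PRMT3-KD. WISP1 had 43 and 53 counts in Ctrl and 1 and 15 in PRMT3-KD, with an adjusted p of 0.0979 (edgeR). WISP2, at most 9 counts in a library, did not pass the filter.

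SRF with its cofactors MKL1 and MKL2, and the AP-1 factors, act beside YAP and TEAD at many shared targets. Of 9 such genes 1 was called, where 10.9% of all tested genes were called. It was FOS, which had 21 and 22 counts in Ctrl and 89 and 376 in PRMT3-KD (log2 fold change 3.42, adjusted p = 0.0495, edgeR). With DESeq2's size factors in the same test its adjusted p was 0.0503. SRF had 130 and 123 CPM in Ctrl and 134 and 183 CPM in PRMT3-KD, MKL1 and MKL2 had log2 fold changes of 0.18 and 0.37, and none of these 3 genes was called. The lowest value was that of FOSL1, with 189 and 190 CPM in Ctrl and 140 and 60.1 CPM in PRMT3-KD (log2 fold change -0.93, adjusted p = 0.179, edgeR), which DESeq2 (adjusted p = 0.0262) and limma-voom (0.0185) called.

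**Figure D5:**
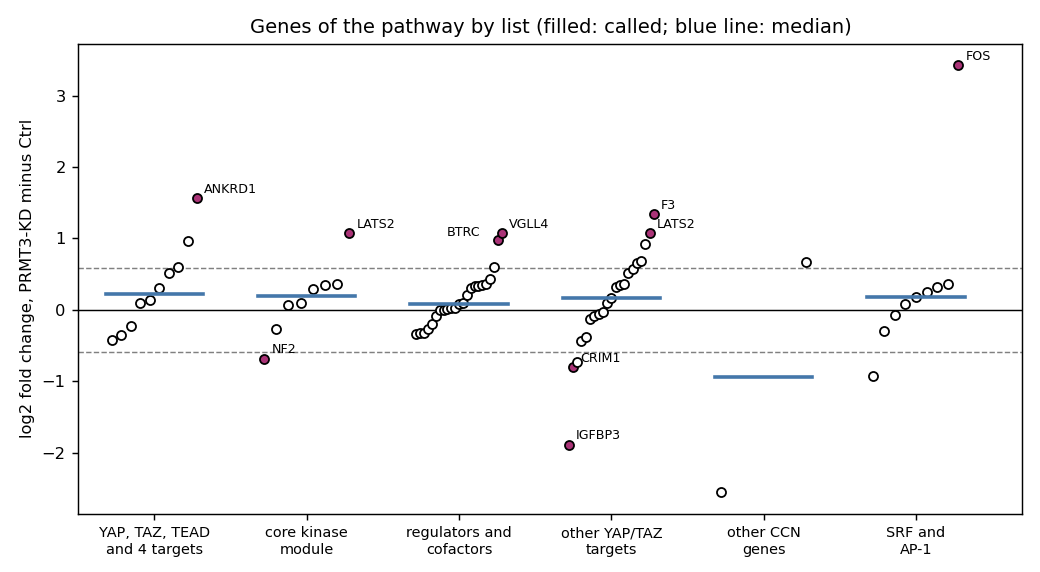
Log2 fold changes of the 10 genes and of the tested genes of the 5 other lists, each point a gene, filled where called, with a blue line at the median of the list and dashed lines at 1.5-fold. Most points lie between the dashed lines, and the medians of all lists but the 2 other CCN genes lie between 0.08 and 0.22. In PRMT3-KD libraries 1 and 2 the medians were 0.12 and 0.29 for the 10 genes and 0.07 and 0.31 for the core kinase module. They were 0.02 and 0.24 for regulators, 0.19 and 0.23 for other targets, and -0.01 and 0.41 for SRF and AP-1. LATS2 is drawn both as a core kinase and as a target, and PTPN14 both as a regulator and as a target.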

How the data were processed

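RNA-seq was measured in 2 Ctrl and 2 PRMT3-KD libraries, grouped by their titles. Per the study's methods, the authors aligned reads to hg19 (GRCh37) with TopHat and deposited unnormalized counts per gene from Cufflinks; versions, annotation and strand setting are not given in the sources used here. After 1 duplicate entry was removed, counts were filtered (filterByExpr, minimum count 10, minimum total 15), TMM-scaled and fitted by the quasi-likelihood functions (glmQLFit, glmQLFTest) of edgeR 4.0.16 (R 4.3.3), with Benjamini-Hochberg adjustment over 13172 genes. DESeq2 1.42.0, the tool of the study, and limma 3.58.1 were alternatives. CPM are on the TMM scale, SD is over 2 libraries, and each standard error is derived from the F statistic of its gene. Totals were 24804250 to 29756313 counts per library, so genes with few counts are measured least precisely. Coordinates and lengths are from GENCODE v44lift37 (GRCh37), and promoters from RefSeq. Genes named outside the 10 are those called, the largest rise and fall of each list, and the 3 nearest to CTGF and to YAP1; the rest were named after their values were seen. The genes and lists were chosen with earlier results of these data known. The fits that used all 4 libraries were also run on simulated counts with the same spread in every library. In these data the median log2 difference was 0.0530 within Ctrl and 0.236 within PRMT3-KD. The simulation therefore cannot show how the fits behave when the groups differ in spread.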

Additional observations from a re-analysis of the deposited data

How the results depend on the processing

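ANKRD1 kept its direction and its call under the 8 alternatives that used all 4 libraries, with log2 fold changes of 1.54 to 1.57. Over all tested genes DESeq2 called 1834 (13.9%) and limma-voom 1690 (12.8%), against 1441 (10.9%). The number called among the 10 genes was 1, and it was 3 with DESeq2 (ANKRD1, TEAD3, CTGF), 2 with limma-voom with group weights, 2 with the replicate block (ANKRD1 and TEAD3) and 0 to 5 with each library left out. Across genes, the differences between libraries 2 and 1 of the 2 groups had a correlation of 0.0379, so the numbers were not taken to pair libraries, and the replicate block called 1464 genes in all, against 1441. With each library left out the number over all genes was 0 to 3066: 0 without either Ctrl library, and 3066 and 2989 without PRMT3-KD library 1 and 2, where the spread rests on the closely similar Ctrl pair. A group left with 1 library is assumed to vary like the other. The further targets numbered 4 called, with 7 by DESeq2, 8 by limma-voom and 0 to 9 with a library left out. The other CCN genes numbered 1 by DESeq2 and 0 to 2 with a library left out. The SRF and AP-1 factors numbered 2 by DESeq2 and by limma-voom, 0 with DESeq2 size factors in edgeR and 0 to 2 with a library left out. The core kinase module ranged from 0 to 2 and the regulators from 0 to 5 with a library left out. TEAD2 was the 1 gene of the 10 to reverse, to 0.21 without PRMT3-KD library 1, and it was -0.87 without library 2. The 10 genes are deep, with 161 to 61845 counts per library, so the spread between PRMT3-KD libraries limits them more than counting does.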
